A study of Mus musculus with 30 samples.

Results

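Enterobacteriaceae were followed in the feces of 30 mice by sequencing of the bacterial 16S rRNA gene. The members were the amplicon sequence variants (ASVs, distinct 16S sequences) that the deposited taxonomy placed in the family Enterobacteriaceae and that had at least 1 count in these mice, which were 696 of 12980 ASVs. They held 219075 of 2611709 counts, or 8.39%. The study asked how salidroside, tyrosol and hydroxytyrosol act on mice with metabolic syndrome from a high-fructose diet and on their gut bacteria. All mice were female C57BL/6 mice (C57BL/6J in the methods), given as 6 weeks old, with 6 mice in each of 5 groups. The control group ate a normal diet and received saline by gavage, and the model group ate a diet with 60% fructose and received saline. The salidroside, tyrosol and hydroxytyrosol groups ate the same high-fructose diet as the model group and received 50, 23 and 26 mg/kg of their compound by gavage, doses that the methods set equal in moles. The methods give 8 weeks of feeding and the legends give 12 weeks. The pioglitazone group of the study is not analysed here, and the labels name no cage and no sequencing batch. Mice are called by their group and the number in the sample title.

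Enterobacteriaceae are Gram-negative rods that grow with or without oxygen, whereas most gut bacteria are strict anaerobes. In a healthy gut they are usually a small part of the community, and they are known to expand when oxygen, nitrate or simple sugars become available to them. Family members such as Escherichia and Shigella live in or infect the gut, and Proteus and Morganella split urea and break down amino acids. A relative abundance is a share of all counts of a mouse, so it can move because other families moved, and a change in the number of these bacteria cannot be told apart from a change in the rest of the community. Taxon names are those of the deposited table. Escherichia and Shigella have almost the same 16S gene, and 0 ASVs of the table carried an Escherichia label, so "Shigella" below means a label that can hold both.

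Depth ranged from 41862 to 106609 counts per mouse, with the lowest totals in control mouse 4 and salidroside mouse 2. At these depths a count of 0 allows a share of up to 0.00281% to 0.00717%. The 95% Wilson intervals of single mice and these limits cover counting error only, because PCR reads without molecular identifiers are not independent molecules. Nothing in the labels ties mice to cages, so the p-values measure only the spread between the mice of these groups.

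The family was found in every mouse, and its relative abundance varied widely between mice. The median over the 30 mice was 0.998%, and 15 mice were below 1%. The lowest value was 0.011% in model mouse 6 (Wilson interval 0.00612% to 0.0196%, 11 counts). The highest value was 70.8% in hydroxytyrosol mouse 1 (Wilson interval 70.5% to 71.1%, 71801 counts), which was 6463 times the lowest. Enterobacteriaceae were the most abundant family in 3 mice, which were control mouse 5 and hydroxytyrosol mice 1 and 6.

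The abundance was concentrated in a few blooms, defined here as more than 10% of the counts of a mouse. There were 7 such mice, and they held 83.5% of all Enterobacteriaceae counts. In the control group, mice 1, 5 and 6 stood at 20.6%, 23.5% and 22.5%, while mice 2, 3 and 4 stood at 0.0263%, 0.269% and 0.850%. In the salidroside group, mouse 1 was at 11% and mouse 2 at 22.6%. In the hydroxytyrosol group, mouse 1 was at 70.8% and mouse 6 at 47.4%, and this pair alone held 51.8% of all counts of the family. No mouse of the model group (0 of 6) and no mouse of the tyrosol group (0 of 6) passed 10%. With a limit of 5% the salidroside group had 4 such mice, because mice 3 and 5 were at 6.27% and 9.58%, and with a limit of 20% it had 1.

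**Figure D1:**
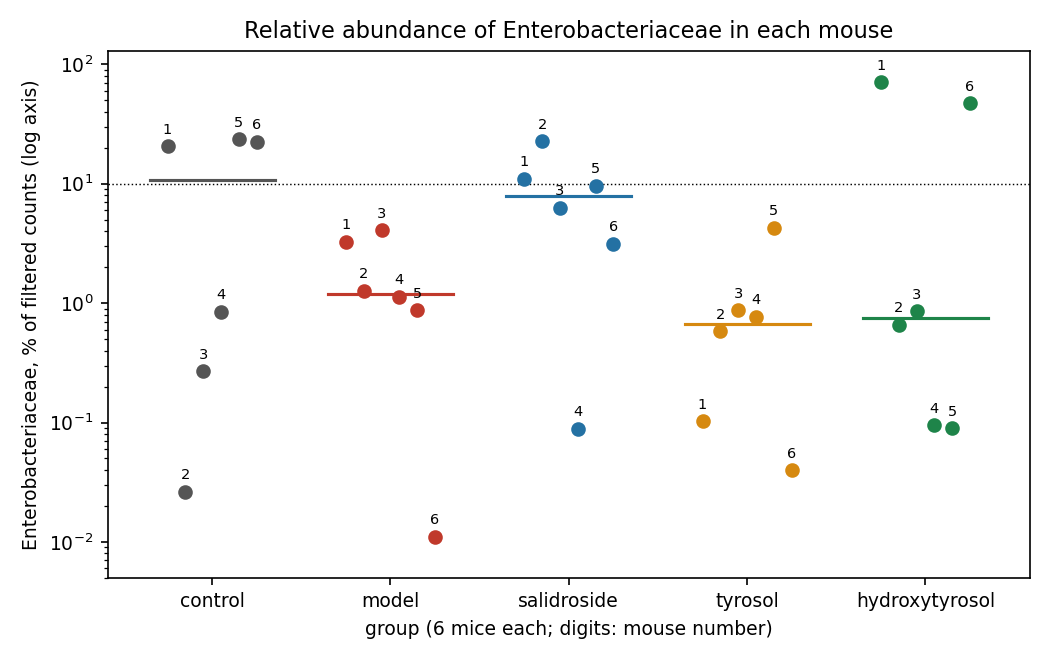
Relative abundance of Enterobacteriaceae in percent of the counts of the filtered table (vertical, log axis) in the 5 groups (horizontal); each point is 1 mouse with its number, the horizontal bars are group medians and the dotted line marks 10%. The 7 mice above the line belong to the control, salidroside and hydroxytyrosol groups, and the values of every group spread over more than a 10-fold range.

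Means and medians therefore gave different orders of the groups. The control group had a mean of 11.3% ± 12 (SD, n = 6) and a median of 10.7%, from 0.0263% to 23.5%. The model group had a mean of 1.77% ± 1.56 (SD, n = 6) and a median of 1.2%, from 0.011% to 4.07%. The ranges of these groups overlapped, since control mice 2, 3 and 4 lay inside the range of the model group.

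The salidroside group had a mean of 8.77% ± 7.87 (SD, n = 6) and a median of 7.93%, from 0.0886% to 22.6%. The tyrosol group had a mean of 1.11% ± 1.59 (SD, n = 6) and a median of 0.675%, from 0.0397% to 4.28%. The hydroxytyrosol group had the highest mean, 20% ± 31.2 (SD, n = 6), but a median of only 0.755%, from 0.0898% to 70.8%. Without mice 1 and 6 the other 4 hydroxytyrosol mice had a mean of 0.424% ± 0.391 (SD, n = 4). Across the 5 groups a Kruskal-Wallis statistic of 3.22 had a permutation p of 0.539.

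The effect of the diet was taken from model against control mice. The model group was lower by 9.52 percentage points, with an interval of -21.1 to 2.03 obtained by inverting the test, and a two-sided exact permutation test gave p = 0.17, or 0.404 adjusted over the 7 comparisons made. The smallest p that 6 against 6 mice can give is 0.0022. In counts at the family level, edgeR gave a log2 fold change of -2.30 ± 1.47 (SE) with an adjusted p of 0.261, where 10 of 58 families, or 17.2%, passed the threshold of 0.05. The difference between these groups was thus within the spread between mice, and without control mouse 6 the log2 fold change was -0.65.

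Each compound was then compared with the same 6 model mice, so these comparisons share their reference. Salidroside mice were higher in 29 of 36 pairs of mice, by 7.0 percentage points (interval 0.509 to 14.5), with an exact permutation p of 0.039 that became 0.136 after adjustment. Without salidroside mouse 4, the lowest of its group, the difference was 8.74 points and the adjusted p 0.0455 (exact permutation), and without salidroside mouse 2 it was 4.24 points. The edgeR log2 fold change was 2.22 ± 1.28 (SE) with an adjusted p of 0.265, and 7 of 53 families (13.2%) passed. Moraxellaceae, the most abundant family of many of these mice, averaged 33.3% in salidroside and 56.2% in model mice. With the counts of Acinetobacter, its main genus, left out of the totals, the difference in Enterobacteriaceae was 12.6 points with an exact permutation p of 0.22.

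Tyrosol mice differed from model mice by -0.664 percentage points (interval -2.54 to 1.45, exact permutation p = 0.44, adjusted 0.459), and by -1.30 points without tyrosol mouse 5 and -0.205 without model mouse 3. The edgeR log2 fold change was -1.57 ± 1.12 (SE) with an adjusted p of 0.387, and 2 of 60 families (3.33%) passed. It was -2.39 without tyrosol mouse 5 and -0.55 without model mouse 3. Hydroxytyrosol mice differed by 18.2 points (interval -2.38 to 46.6, exact permutation p = 0.44, adjusted 0.459), but they were higher in only 16 of 36 pairs, and their mean rank was lower than that of the model mice by 0.667. Here the edgeR log2 fold change was 3.16 ± 1.62 (SE) with an adjusted p of 0.227, against 7 of 59 families (11.9%) that passed. Leaving out hydroxytyrosol mouse 1 lowered the difference to 8.05 points.

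The 3 compounds are related in structure, since salidroside is the glucoside of tyrosol and hydroxytyrosol is tyrosol with another phenolic hydroxyl group. All 3 pairs were compared, at the same time and at doses equal in moles. Salidroside exceeded tyrosol in 30 of 36 pairs of mice, by 7.67 percentage points (interval 1.18 to 15.6), with an exact permutation p of 0.026 and 0.136 after adjustment, and by 4.90 points without salidroside mouse 2. The edgeR log2 fold change for this pair was 3.04 ± 1.26 (SE) with an adjusted p of 0.205, and 1 of 49 families (2.04%) passed. Hydroxytyrosol exceeded tyrosol by 18.9 points (interval -1.82 to 47.3, exact permutation p = 0.33, adjusted 0.459), and by 8.72 points without hydroxytyrosol mouse 1. For that pair edgeR gave 4.36 ± 1.83 (SE) with an adjusted p of 0.221, and 1 of 55 families (1.82%) passed, and the log2 fold change was 2.57 without hydroxytyrosol mouse 1.

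With DESeq2 in place of edgeR, both differences from tyrosol passed the threshold, with log2 fold changes of 3.35 (DESeq2 adjusted p = 0.0243) for salidroside and 4.21 (DESeq2 adjusted p = 0.0241) for hydroxytyrosol. DESeq2 also passed more families, 4 of the 48 with an adjusted p (8.33%) in the first comparison and 10 of 53 (18.9%) in the second. These 2 comparisons passed under DESeq2 alone of the 9 alternative settings that kept all mice. Salidroside and hydroxytyrosol differed by -11.2 points (interval -42.3 to 14, exact permutation p = 0.46, adjusted 0.459), or by -1.05 points without hydroxytyrosol mouse 1. For this pair edgeR gave a log2 fold change of -1.58 ± 1.71 (SE) with an adjusted p of 0.714. Without hydroxytyrosol mouse 1 the log2 fold change turned sign to 0.64. Here 0 of 50 families (0%) passed with edgeR, 7 had an unadjusted p under 0.05 and 3 (6.00%) passed with DESeq2. The intervals of all 3 pairs were wide, so equal levels under the compounds were not shown.

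**Figure D2:**
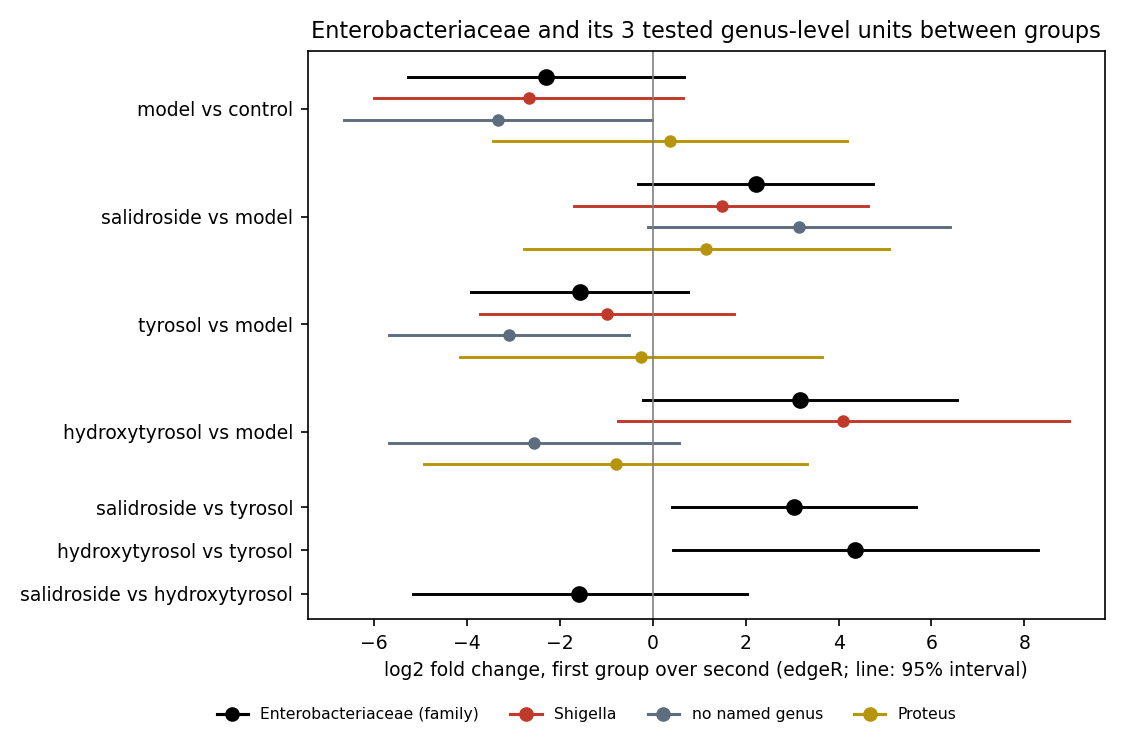
Log2 fold changes from edgeR (horizontal; points, with 95% intervals as lines) for Enterobacteriaceae in 7 comparisons and for its 3 tested genus-level units in the 4 comparisons with the control or model group. The intervals of the family cross 0 in all comparisons but salidroside against tyrosol and hydroxytyrosol against tyrosol, and 0 of the points passed the adjusted threshold.

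Within the family, the Shigella label led. It covered 153 ASVs and 172622 counts, or 78.8% of the family, and was found in all 30 mice. Only 3 of these ASVs, with 8 counts in all, carried a species name, Shigella dysenteriae. ASVs without a named genus were far more numerous, 490 of 696, but held only 18.5% of the counts, in 29 mice. Proteus, a swarming urease-positive genus, had 30 ASVs and 2.68% of the counts in 19 mice, and 16 of its ASVs with 896 counts were named Proteus vulgaris.

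The other 5 labels were rare. Morganella had 4 ASVs and 74 counts, all in salidroside mouse 1, where they made 0.0992% of the counts, and its leading ASV_62966 had 49 of them. Enterobacter had 14 counts, all in salidroside mouse 2. Xenorhabdus, known from insect-killing nematodes, had 25 counts in 5 mice, and Citrobacter, labelled Citrobacter koseri, had 5 counts in 2 mice. A further 8 ASVs with 31 counts were labelled Pseudomonas syringae, a plant bacterium of another family, although the table placed them in Enterobacteriaceae. Proteus, Morganella and Xenorhabdus are put in a family of their own, Morganellaceae, in newer taxonomies.

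The makeup of the family changed from mouse to mouse within every group. The Shigella part of the family counts averaged 43.3% ± 38.9 in control, 57.8% ± 32.9 in model, 36.7% ± 42.6 in salidroside, 61.2% ± 24.5 in tyrosol and 61.2% ± 48.5 in hydroxytyrosol mice (SD, n = 6 each). Its range reached from 0.212% in hydroxytyrosol mouse 2 to 100% in hydroxytyrosol mouse 5. In 7 exact permutation tests the lowest p was 0.24, for salidroside against tyrosol, and the adjusted p of that pair was 0.871. The groups overlapped in every comparison.

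**Figure D3:**
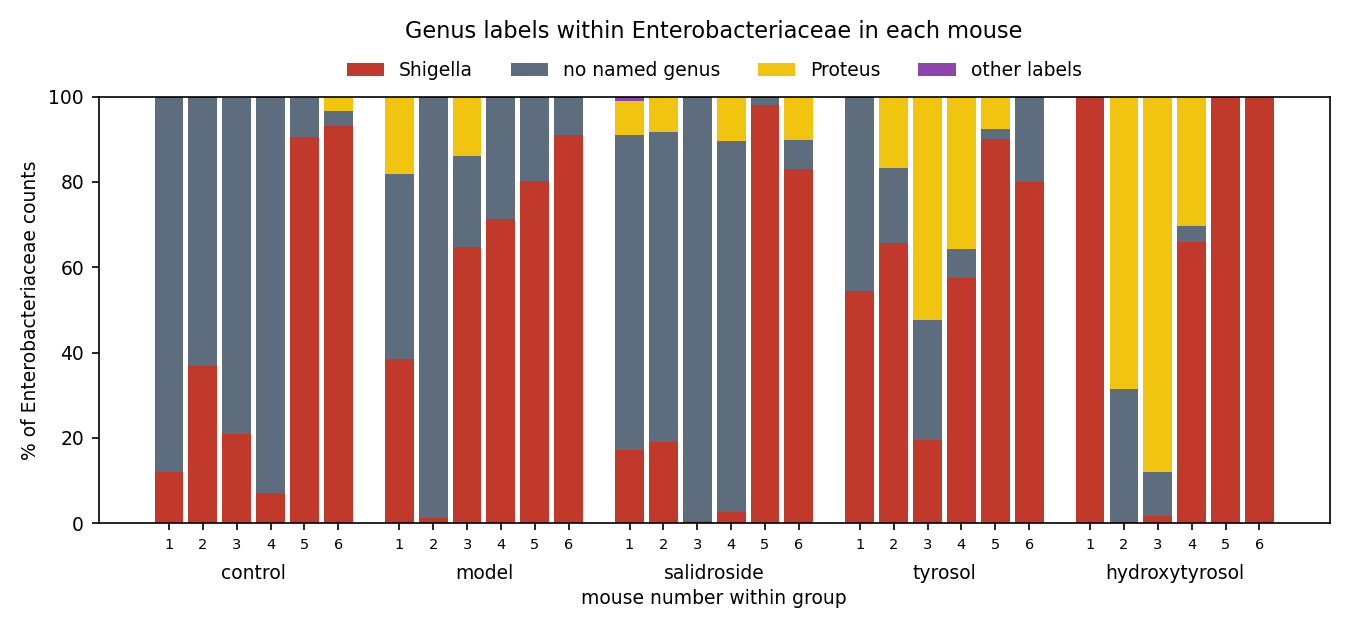
Genus labels as percent of the Enterobacteriaceae counts (vertical) in each of the 30 mice (horizontal, by group and mouse number); each bar adds up to 100%, and the number of counts behind a bar ranges from 11 to 71801. Shigella leads in hydroxytyrosol mice 1, 4, 5 and 6 and Proteus in hydroxytyrosol mice 2 and 3, while ASVs without a named genus lead in control mice 1 to 4.

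As a share of all counts, Shigella-labelled ASVs had a median of 1.26% in control mice (0.0097% to 21.2%), 0.751% in model mice (0.00996% to 2.63%) and 2.25% in salidroside mice (0.00233% to 9.40%). In tyrosol mice the median was 0.276% (0.0318% to 3.86%) and in hydroxytyrosol mice 0.076% (0.00139% to 70.5%). Hydroxytyrosol thus held both the highest value and the lowest median of this label. Its edgeR log2 fold change against the model group was 4.10 ± 2.29 (SE) for hydroxytyrosol with an adjusted p of 0.339, and -2.67 ± 1.64 (SE) for model against control with an adjusted p of 0.235. The latter was -4.13 without model mouse 3 and -1.80 without control mouse 5.

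ASVs without a named genus had lower medians in tyrosol and hydroxytyrosol mice than in the other groups. Their median was 0.783% in control mice (0.0166% to 18.2%), 0.594% in model mice (0.000996% to 1.42%) and 3.23% in salidroside mice (0.0769% to 16.4%). It was 0.0754% in tyrosol mice (0.00794% to 0.244%) and 0.0887% in hydroxytyrosol mice (0 to 0.270%). These ranges overlapped with that of the model group, whose mouse 6 was the low one.

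For ASVs without a named genus, salidroside against model gave a log2 fold change of 3.14 ± 1.58 (SE; edgeR adjusted p = 0.424). Hydroxytyrosol against model gave -2.56 ± 1.48 (SE; edgeR adjusted p = 0.339). Tyrosol against model gave a log2 fold change of -3.10 ± 1.24 (SE; edgeR adjusted p = 0.124), and model against control gave -3.33 ± 1.63 (SE; edgeR adjusted p = 0.116). The latter value rested on control mouse 1, at 18.2%, since it was 0.07 without that mouse. Proteus was found in few model mice, with 0 counts in 4 of 6, and its medians lay between 0 and 0.185% with a highest value of 1.83% in salidroside mouse 2. Of the 3 units tested, 0 passed in any of the 4 comparisons with edgeR or with DESeq2, and 1 had an unadjusted p under 0.05 in model against control and in tyrosol against model. Among all genera, 22 of 92 (23.9%) passed in model against control, 4 of 92 (4.35%) for salidroside, 2 of 98 (2.04%) for tyrosol and 4 of 96 (4.17%) for hydroxytyrosol against model.

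Single ASVs carried much of the family. ASV_74633, labelled Shigella, held 55.0% of all Enterobacteriaceae counts, was found in 28 mice and was the leading member in 19. It was absent (0 counts) from salidroside mouse 4 and hydroxytyrosol mouse 2. ASV_5205, of the same label, held 15.8% of the family and was found in 16 mice. The first 14 ASVs by mean share held 89.7% of the counts. At the other end, 543 of 696 ASVs (78.0%) occurred in 1 mouse and together held 2.20% of the counts, compared with 70.7% of the ASVs of all other families.

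ASV_74633 reached 52.0% of all counts in hydroxytyrosol mouse 1 and 30.5% in mouse 6, but 0, 0.0151%, 0.0622% and 0.0626% in hydroxytyrosol mice 2, 3, 4 and 5. In the model group it stood at 0.717%, 0.0141%, 1.56%, 0.658%, 0.576% and 0.00697% in mice 1 to 6. The 4 other hydroxytyrosol mice thus lay within or below the range of the model group. The edgeR log2 fold change of ASV_74633 for hydroxytyrosol against model was 4.90 ± 2.26 (SE) with an adjusted p of 0.0925.

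**Figure D4:**
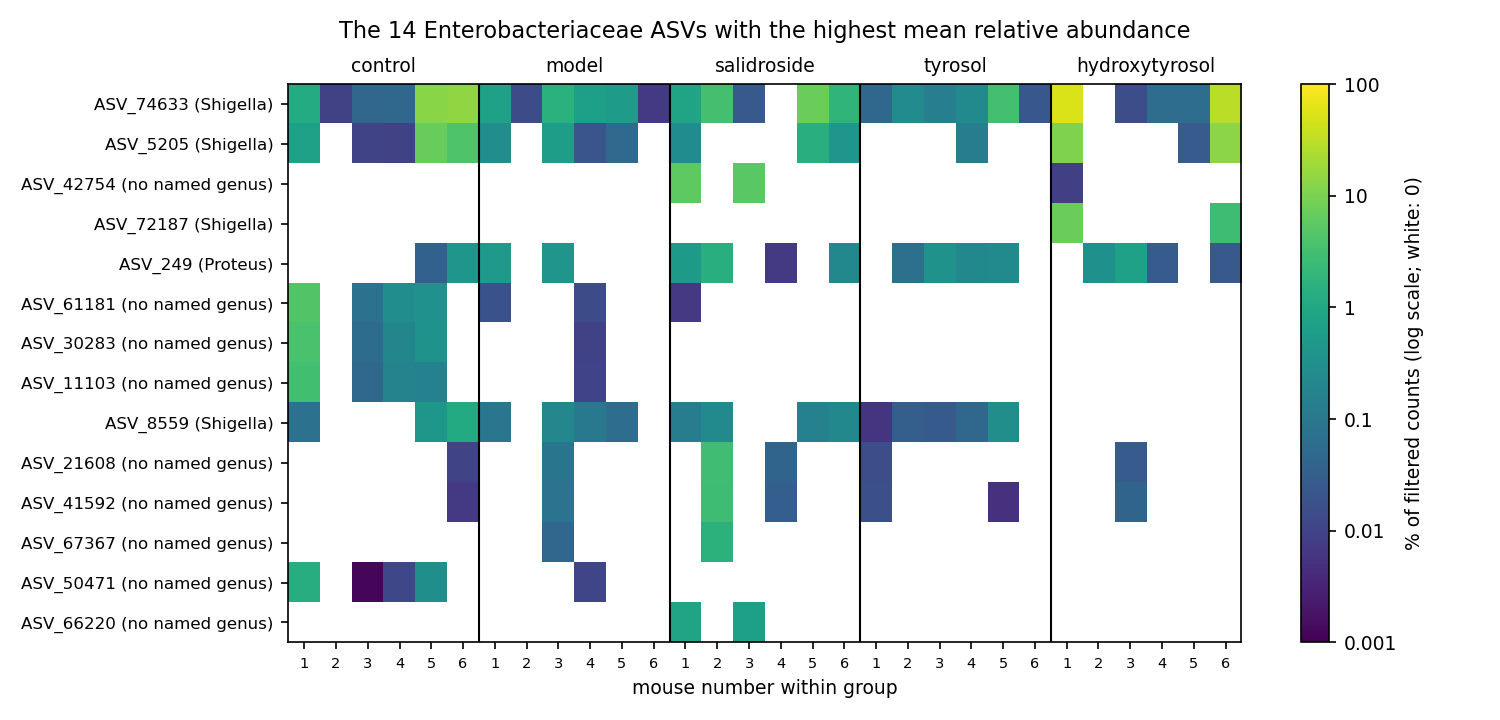
Relative abundance in percent of all counts (color, log scale; white is 0) of the 14 Enterobacteriaceae ASVs with the highest mean (rows, with their genus label) in the 30 mice (columns, by group and mouse number). ASV_74633 is found in 28 mice, while ASV_72187 is found in hydroxytyrosol mice 1 and 6 only and ASV_61181, ASV_30283 and ASV_11103 are highest in control mouse 1.

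The blooms did not consist of the same ASVs. Control mouse 1 was led by ASV_61181, without a named genus, at 4.38% of all counts, followed by ASV_30283 at 3.70% and ASV_11103 at 3.03%, and these 3 ASVs made 53.9% of its Enterobacteriaceae. They were also the main ASVs of control mice 3 and 4, with 68.6% and 77.2% of the family, and made 3.63% of it in control mouse 5. In control mice 2 and 6 all 3 ASVs had 0 counts. Control mice 5 and 6 were led by ASV_74633 instead, with 55.7% and 64.8% of the family.

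Salidroside mice 1 and 3 shared ASV_42754, also without a named genus, at 5.68% and 5.23% of all counts. Outside them it was found only in hydroxytyrosol mouse 1, at 0.00888%. ASV_66220 went with it in both salidroside mice, at 14.4% and 12.7% of its level. Salidroside mouse 2 had no dominant member, since ASV_74633 led with only 14.7% of the family, followed by ASV_21608 at 2.91% and ASV_41592 at 2.81% of all counts, both without a named genus. ASV_249, the main Proteus member, occurred in 16 mice and led in tyrosol mouse 3 and hydroxytyrosol mice 2 and 3, where it made 40.3%, 48.3% and 86.8% of the family.

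The Shigella-labelled part of the 2 hydroxytyrosol blooms differed in some minor ASVs from that of the 15 other mice with at least 100 counts of ASV_74633. ASV_72187 was found in hydroxytyrosol mouse 1 (7.42% of all counts) and mouse 6 (2.77%) and had 0 counts in the other mice. It made 14.3% and 9.08% of the level of ASV_74633 in the blooms and 0 in those 15 mice, whose 40598 summed counts of ASV_74633 allow up to 0.00739%.

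ASV_8559 showed the opposite pattern. It was found in all 15 of those mice, at 2.10% to 19.3% of the level of ASV_74633 (median 12%), and had 0 counts in hydroxytyrosol mice 1 and 6. The 52754 and 26798 counts of ASV_74633 in these mice allow it up to 0.00569% and 0.0112% of that level. ASV_90205 and ASV_12860, of the same label, were found in 7 and 11 of the 15 mice and also had 0 counts in hydroxytyrosol mice 1 and 6. The counts of these 4 ASVs were the same in the unfiltered table. Both blooms carried ASV_5205 at 20.3% and 44.1% of the level of ASV_74633, within the range of 0 to 61.4% of the other mice. These ASVs were picked after their values were seen, and the pattern rests on 2 mice of a single group, which the labels do not tie to any cage or batch.

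**Figure D5:**
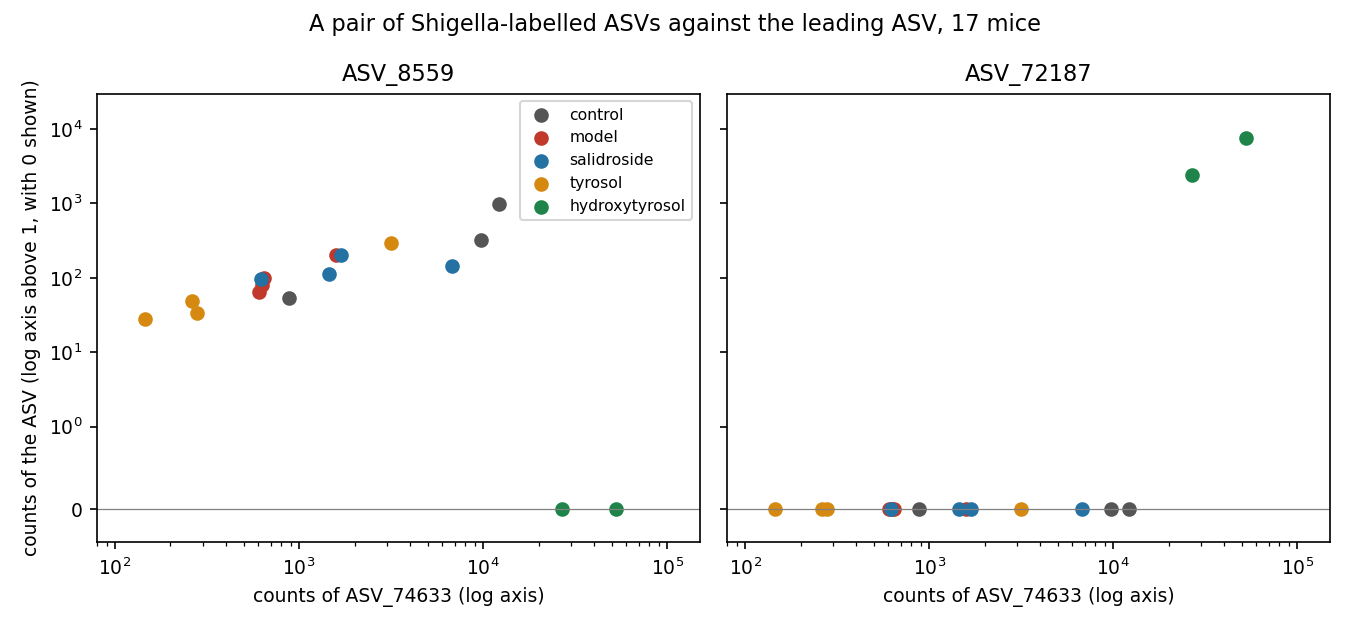
Counts of ASV_8559 (left) and ASV_72187 (right) on the vertical axis (log above 1, with 0 shown) against counts of ASV_74633 on the horizontal log axis in the 17 mice with at least 100 counts of ASV_74633; color gives the group. ASV_8559 is present in 15 mice and at 0 in the 2 hydroxytyrosol mice, and ASV_72187 is present in those 2 mice and at 0 in the 15.

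Single ASVs were also tested with edgeR, provided that 4 or more of the 12 mice compared had 10 or more counts. Few members passed this filter, 23, 20, 13 and 10 of 696 in the comparisons of model with control and of salidroside, tyrosol and hydroxytyrosol with model. A member that was high in 1 group only could pass through that group alone, so the filter favoured members that differed, although not all of them passed the test. All 7 members that passed the test were of this kind, since 4 mice of the higher group met the filter without the other group, and their p-values are given as a description. In model against control, 4 of the 23 passed the test, all lower in the model group, where 125 of 411 of all tested ASVs (30.4%) passed. For salidroside 1 of 20 passed (all ASVs 4.19%), for tyrosol 0 of 13 (all ASVs 8.49%; 0 of 13 at an unadjusted p under 0.05, and 0 with DESeq2) and for hydroxytyrosol 2 of 10 (all ASVs 32.8%). The hydroxytyrosol count was 4 with DESeq2 (all ASVs with an adjusted p 43.7%) and 14 with all 30 mice in one edgeR model (all ASVs 43.8%), which also gave 5 for tyrosol (all ASVs 12.6%). That model applied the filter over all 30 mice and tested 785 ASVs. Its counts are thus not out of the 10 and 13 members above, and they are not read as a rise among the members.

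The 4 ASVs that were lower in the model group were all without a named genus and were all found in control mice 1, 3, 4 and 5. ASV_61181 stood at 4.38%, 0, 0.0775%, 0.289%, 0.332% and 0 in control mice 1 to 6, and in the model group only at 0.0182% in mouse 1 and 0.0143% in mouse 4. Its log2 fold change was -9.30 ± 2.91 (SE; edgeR adjusted p = 0.00580). ASV_30283 had a log2 fold change of -11.22 ± 3.17 (SE; edgeR adjusted p = 0.00548), and ASV_11103 one of -10.79 ± 3.13 (SE; edgeR adjusted p = 0.00551). ASV_29110 had 0 counts in all model mice and was at least 64-fold lower there (edgeR adjusted p = 0.00548), with each model mouse set to a floor of 3 counts. Without control mouse 1 this bound was 7.55-fold, and 0 of the 4 ASVs passed: ASV_61181 had a log2 fold change of -4.47 (edgeR adjusted p = 0.207) and ASV_11103 one of -5.17 (edgeR adjusted p = 0.0915), and the others no longer met the filter. DESeq2 gave no adjusted p for any of the 4.

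ASV_71486, without a named genus, had 0 counts in all model mice and was found in salidroside mice 2, 3, 5 and 6 at 0.0409%, 0.0174%, 0.0564% and 0.0501%. It was not particular to salidroside, since 3 control mice and 1 tyrosol mouse also had it. Its mean was 0.12% in the control group, with 0.688% in control mouse 1, and 0.0275% in the salidroside group. It was at least 8.88-fold higher in the salidroside group than in the model group (edgeR adjusted p = 0.0279), or at least 7.01-fold without salidroside mouse 5. Without TMM scaling its edgeR adjusted p was 0.0519, and leaving out 1 mouse ended the call in 8 of 12 cases, in 4 of them because it no longer met the filter.

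ASV_8559, described above, was found in model mice 1, 3, 4 and 5 at 0.0900%, 0.202%, 0.103% and 0.0613% and had 0 counts in all hydroxytyrosol mice. It was at least 22.1-fold lower in the hydroxytyrosol group (edgeR adjusted p = 0.00404), or at least 14.8-fold without model mouse 3. In hydroxytyrosol mice 2 to 5 the leading ASV_74633 itself had at most 53 counts, so ASV_8559 could have been missed there. ASV_67126, without a named genus, was found in model mice 1 to 5 at 0.00287% to 0.0445% and at 0 in all hydroxytyrosol mice, at least 6.18-fold lower (edgeR adjusted p = 0.00453), or 4.84-fold without model mouse 1. Each of these 2 ASVs failed the filter when any 1 of 4 model mice was left out. All 7 ASVs that passed were named after their values were seen.

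The number of Enterobacteriaceae ASVs was counted in the table that the authors rarefied to 39768 counts per mouse. It averaged 62.3 ± 57.2 in control, 36.7 ± 28.4 in model, 53.2 ± 50.2 in salidroside, 16.5 ± 7.23 in tyrosol and 29.0 ± 33.8 in hydroxytyrosol mice (SD, n = 6 each). The extremes were 2 ASVs in control mouse 2 and hydroxytyrosol mouse 5 and 133 in control mouse 1. Tyrosol mice stayed between 6 and 23 ASVs, and each of the other groups held mice with more. In 7 exact permutation tests the lowest p was 0.091, for salidroside against tyrosol (difference 36.7, interval -2.50 to 91.0, adjusted p = 0.515), and that difference was 21.1 without salidroside mouse 2.

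Of the 696 ASVs, 568 (81.6%) were found in 1 group and held 7.97% of the family counts, and 543 of these 568 were the ASVs of a single mouse. Among the ASVs of all other families, 79.1% were found in 1 group. The 21 ASVs found in all 5 groups (3.02%, against 1.66% of the other ASVs) held 76.6% of the family counts. By group, 296 ASVs were found in control, 162 in model, 261 in salidroside, 78 in tyrosol and 165 in hydroxytyrosol mice. These numbers are from the filtered counts, which were not rarefied to even depth. Single mice weighed heavily in them, with 144 ASVs in control mouse 1 and 132 in salidroside mouse 2.

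Other families of the gut that grow with or without oxygen were read beside Enterobacteriaceae from a list of 8 families. Enterococcaceae, Staphylococcaceae, Streptococcaceae, Aerococcaceae and Lactobacillaceae could be tested, while Pasteurellaceae and Aeromonadaceae were found in 1 and 3 mice and Vibrionaceae had no counts. In 7 comparisons only Enterococcaceae in model against control passed, higher in the model group at 4.02% against 0.329%, with a log2 fold change of 5.39 ± 1.54 (SE; edgeR adjusted p = 0.0137). This was 1 of the 5 tested families of the list in that comparison, where 17.2% of all families passed. Lactobacillaceae had a log2 fold change of -1.99 (edgeR adjusted p = 0.261) and Enterobacteriaceae one of -2.30. The median log2 fold change of the 5 families was 0.34 in model against control, beside 0.60 for all tested families. Against the model group it was 0.57 for salidroside (all families -0.60), -1.14 for tyrosol (all families -1.07) and 0.47 for hydroxytyrosol (all families -1.0).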

How the data were processed

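The members, lists and tests were chosen with earlier results of these data known. Per the protocol in the labels, stool DNA of 30 mice was amplified and sequenced, although the molecule field of the labels names total RNA. As the methods state, the authors merged reads with FLASH, filtered them with QIIME and removed chimeras with UCHIME, and the labels name cutadapt. The methods also group similar sequences into operational taxonomic units. The deposited read log instead lists filtering, denoising, merging and the removal of chimeras and singletons, and its last totals equal the filtered counts. These descriptions differ, so the steps that made the ASV counts are not settled by the methods. The deposited tables hold raw read counts per ASV: an unfiltered table, a filtered table without singletons, used here, and one rarefied to 39768 counts. The taxonomy database is not given in the sources used here.

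Shares, ASV numbers and the Shigella part were compared by two-sided exact permutation tests (924 assignments), adjusted by Benjamini-Hochberg over 7 comparisons, and the 5 groups by 100000 permutations. Counts were tested with edgeR 4.0.16 quasi-likelihood (TMM) in R 4.3.3 over features for which 4 or more of 12 mice had 10 or more counts, adjusted over all features tested. Alternatives were DESeq2 1.42.0, limma 3.58.1 on centred log-ratios, other filters, tables, totals and scalings, and each mouse left out. The edgeR fit alone was tried on simulated counts, modelled on the control and model mice, and the other tests were not. The rule named each genus label, the 5 ASVs with the highest mean share and the leading ASV of the 4 main labels. Samples of the same number in different groups were not paired: deviations of same-numbered mice correlated at -0.00346 on average, over 0.1 in 15 of 60 pairs. Within groups, 0 pairs of mice had identical counts. The other deposited files, a read log and taxon numbers, were not used for results.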

Additional observations from a re-analysis of the deposited data

Results flagged for a closer look

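In 31 sets of 6 mice (among them shares of the family and of its main labels in each group), the gap between the most extreme mouse and its neighbour was set against Dixon's critical value, and 5 sets passed. Chance flags about 1 in 20 sets of independent, normally distributed values. The values used here are skewed, hold zeros and overlap in part, so the 5 sets are not read as an excess. Tyrosol mouse 5 stood out in the family, at 4.28% with the next tyrosol mouse at 0.870%, and in the Shigella label, at 3.86% with the next at 0.442%. Control mouse 1 stood out in ASVs without a named genus, at 18.2% with the next at 2.18%. Control mouse 6 stood out in Proteus, at 0.764% with the next at 0.05%. Salidroside mouse 1 stood out in Morganella, at 0.0992% with the other salidroside mice at 0, where any value above 0 would have stood out. Hydroxytyrosol mice 1 and 6 were not singled out by this test, because a pair of high values hides each of them.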

How the results depend on the processing

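The cause of the changes below was not tested. Depth limits what a count of 0 means, which allows up to 0.00281% to 0.00717% of a mouse's counts. Of the differences in share, those between hydroxytyrosol and model turned sign with mean ranks (-0.667) and those between salidroside and hydroxytyrosol with log10 shares (0.402) and mean ranks (0.667). The Shigella part turned sign for hydroxytyrosol against model among mice with at least 100 family counts (-0.885 points) and for hydroxytyrosol against tyrosol in the rarefied table (1.01 points). The family log2 fold changes with the replicate number as a block were 0.55 for model against control, -1.57 for hydroxytyrosol against model and 1.62 for salidroside against hydroxytyrosol, and 1.37 for the last with centred log-ratios. With DESeq2, salidroside and hydroxytyrosol against tyrosol passed the threshold (3.35 and 4.21), as did 8.33% and 18.9% of all families. Since the title numbers showed no pairing of the mice, the block, which used these numbers, is given for completeness. Proteus had log2 fold changes near 0 that turned sign: against control, -0.48 with singleton pairing in TMM, -0.36 with centred log-ratios and -0.58 without the filter; for tyrosol against model 0.07 (DESeq2), 2.69 (centred log-ratios), 0.04 (no filter) and 5.15 (replicate block); and for hydroxytyrosol against model 0.15 (no TMM), 2.84 (centred log-ratios) and 4.25 (replicate block). Shigella turned to -2.34 for hydroxytyrosol against model with the replicate block.

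In counts of calls, 1 genus label (Morganella, from a single mouse) passed for salidroside against model without the filter, where 13 of 310 genera (4.19%) passed. ASVs called were 0 for model against control with DESeq2 (no adjusted p was given for the 4 ASVs) and 0 with the replicate block. They were 0 for salidroside against model without TMM and 0 with the replicate block, 5 for tyrosol against model with all 30 mice in one model (all ASVs 12.6%), and 4 with DESeq2 (all ASVs 43.7%) and 14 with all 30 mice (all ASVs 43.8%) for hydroxytyrosol against model. The model with all 30 mice filtered over all of them and so tested more ASVs than the main comparisons. Leaving out each mouse in turn gave 0 to 4 ASVs called for model against control, 0 to 1 for salidroside, 0 to 1 for tyrosol and 0 to 6 for hydroxytyrosol against model (6 without hydroxytyrosol mouse 2, where 48.3% of all ASVs passed). It gave shares of 4.24 to 8.74 points for salidroside against model and 4.90 to 9.40 points for salidroside against tyrosol, and both were past the threshold only without salidroside mouse 4. The Shigella part ranged from -7.96 to 11.7 points for tyrosol against model, from -7.97 to 15.6 for hydroxytyrosol against model and from -8.34 to 12.2 for hydroxytyrosol against tyrosol. The family log2 fold change of salidroside against hydroxytyrosol ranged from -2.01 to 0.64 (the latter without hydroxytyrosol mouse 1). Genus log2 fold changes ranged from -4.58 to 0.07 for ASVs without a named genus in model against control, from -1.07 to 1.38 for Proteus and -2.65 to 0.00 for Shigella in tyrosol against model, and from -1.30 to 0.99 for Proteus in hydroxytyrosol against model. Salidroside had 4 mice above a limit of 5% and 1 above 20%. Leaving out mice at the genus and ASV level was chosen after seeing the data.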

Other observations

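Among 101 genus-level units outside the family that were found in at least 15 mice, those whose share followed the Enterobacteriaceae share most closely over the 30 mice were ASVs assigned to Gammaproteobacteria without a family (Spearman's rho 0.772), ASVs assigned to Proteobacteria only (0.548) and Moraxellaceae without a named genus (0.468). Those that ran most against it were Dorea (-0.521), Macrococcus (-0.491) and Sporosarcina (-0.457). These values are descriptions, since shares of one library add up to the same total and the mice belong to 5 groups.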
